A study of Mus musculus with 9 samples.

Results

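Heterotrimeric G proteins, made of an alpha, a beta and a gamma subunit, carry the signal of G protein-coupled receptors into the cell, and RGS proteins (regulators of G-protein signalling) end that signal by speeding the hydrolysis of GTP on the alpha subunit. In the heart, Gs couples beta-adrenoceptors to adenylyl cyclase and raises the force and rate of the beat. Gi/o opposes Gs and, through free beta-gamma dimers, opens the atrial potassium channel that slows the heart. Gq couples receptors for angiotensin II and endothelin to phospholipase C beta, and the G12 class acts on the cytoskeleton. The genes described here were chosen by name alone, as every symbol of the alpha, beta and gamma subunits and of the numbered RGS series. They were 54 of 41710 genes, with 16 alpha subunits, 5 beta subunits, 12 gamma subunits and 21 RGS genes. The count of a gene was the sum of reads over its transcripts.

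RNA from hearts of male FVB/N mice, 8 months old, was sequenced in 3 groups of 3 libraries. Tg-RKIP mice express RKIP (gene Pebp1) under the alpha-MHC promoter, a promoter of heart muscle cells. RKIP is an inhibitor of GRK2, the kinase that phosphorylates active receptors upstream of these G proteins. The second group is labelled Tg-GRK2, with a promoter not given in the sources used here, and the third consists of non-transgenic FVB controls. The comparison of Tg-RKIP with FVB asks which cardiac transcripts differ in hearts with raised RKIP.

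The 9 libraries held 25458108 to 33447654 reads, of which the 54 genes took 0.310 to 0.316% in Tg-RKIP and 0.232 to 0.239% in the other groups. Pebp1 had 252196 to 321666 reads in Tg-RKIP and 7140 to 8446 elsewhere. Grk2 stood at 24.9 to 30.5 TPM (a level per transcript length and library size) in the libraries labelled Tg-GRK2 and at 25.9 to 27.9 TPM in FVB, so its transcript level did not set that label apart. Mitochondrially encoded genes took 11.5 to 11.8% of reads in Tg-RKIP and 22.4 to 23.2% in the other groups. Tg-GRK2 replicate 1 stood apart from the other libraries of its label, with a chi-square per gene of 18.4 and 22.4 against them, where all other pairs within a group had 1.74 to 2.58. Against the FVB libraries, Tg-GRK2 replicates 2 and 3 had 10.2 to 12.5 and Tg-GRK2 replicate 1 had 23.8 to 27.7. Tg-GRK2 replicate 1 was thus further from its own label than Tg-GRK2 replicates 2 and 3 were from FVB. Values below are TMM-scaled CPM, reads scaled to a common library size by a method that assumes most genes do not differ, unless TPM is named. Adjusted p-values were computed with edgeR (quasi-likelihood F-test) and adjusted after Benjamini and Hochberg for the 15504 genes tested, and a gene was called at a value below 0.05. In whole hearts, fewer cells of a type and less RNA per cell cannot be told apart.

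In FVB hearts the levels per transcript length were led by a few genes. Gnas, which encodes the Gs alpha subunit, had 724 ± 15.3 TPM (SD, n = 3) and made 71.0% of all alpha-subunit TPM. Rgs5, known from pericytes, led the RGS genes at 169 ± 3.61 TPM and made 62.4 ± 0.958% of their summed TPM. Gng5 (164 ± 4.67 TPM) led the gamma subunits and Gnb2 (143 ± 9.71 TPM) the beta subunits. Gnai2 (113 ± 2.48 TPM), Gna12 (85.3 ± 0.963 TPM) and Gna11 (27.8 ± 1.38 TPM) led the Gi/o, G12/13 and Gq classes. At the other end were 4 genes with 3 reads or fewer in every library, Gngt1, Rgs8, Rgs13 and Rgs21. Rgs21 had no read in any library, and a count of 0 allows up to 3 reads. Besides these, Gnat1, Gnat2 and Gnat3 (alpha subunits of photoreceptors and taste cells), Gng3, Gng4, Rgs1, Rgs9, Rgs20 and Rgs22 had too few reads for the test, which left 41 genes tested and 13 not tested.

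**Figure D1:**
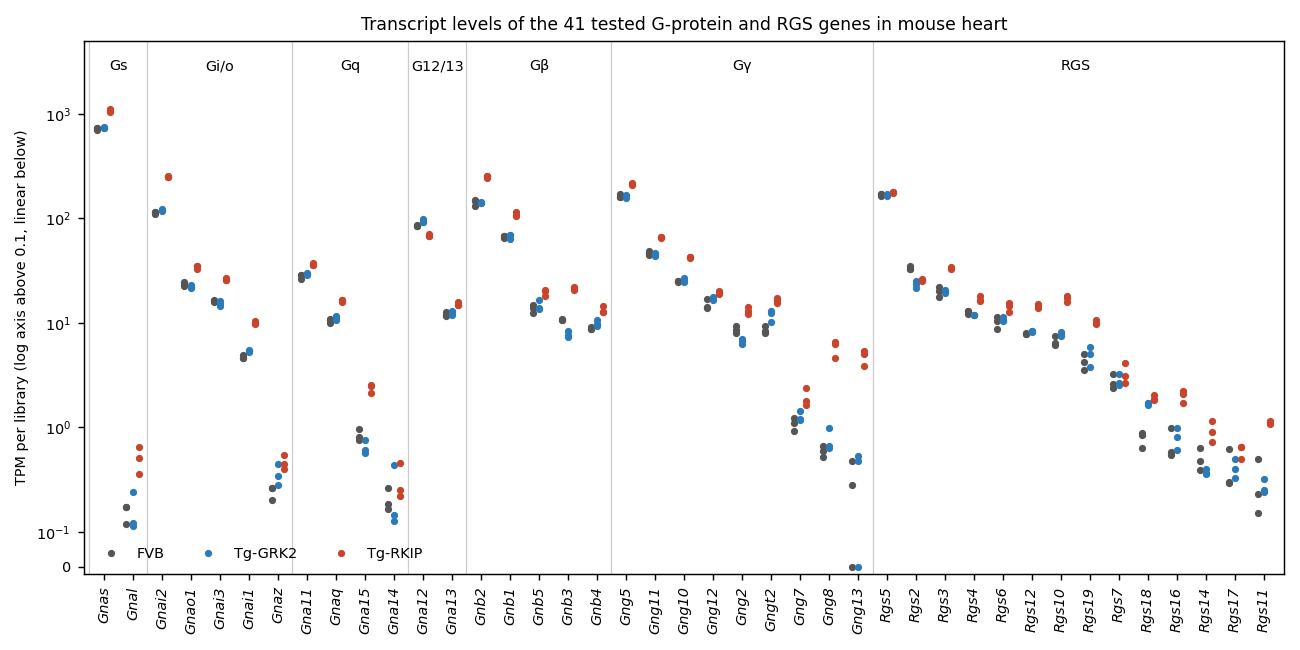
TPM of the 41 tested genes in each library (points; vertical axis logarithmic above 0.1 and linear below), grouped by family and ordered within a family by the FVB mean. Gnas is highest in all 3 groups (724 TPM in FVB), and Gna12 and Rgs2 have all Tg-RKIP points below all FVB points.

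The make-up of the alpha subunits differed in Tg-RKIP hearts. Gi/o genes made 20.7 ± 0.453% of alpha-subunit TPM in Tg-RKIP, 15.7 ± 0.116% in Tg-GRK2 and 15.5 ± 0.108% in FVB (SD, n = 3 each). G12/13 genes made 5.44 ± 0.0977% in Tg-RKIP, 10.2 ± 0.181% in Tg-GRK2 and 9.56 ± 0.201% in FVB. The Gs share was 70.2 ± 0.693%, 70.1 ± 0.0230% and 71.0 ± 0.103% in the same order, and the Gq share 3.60 ± 0.143%, 3.95 ± 0.0805% and 3.86 ± 0.0344%. These shares are ratios within a library and do not depend on how libraries were scaled to each other, and no test was made on such sums.

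Of the 41 genes tested, 25 were higher in Tg-RKIP than in FVB and 5 were lower. Gng8, Gng13 and Rgs11, among the 25, had enough reads for the test only through Tg-RKIP, so they could be called only as higher. The same filter on reads was applied to all genes. Among all genes tested 36.8% were called higher and 37.1% lower, so that the members' shares, 61.0% higher and 12.2% lower, lay to the higher side of the background. By at least 1.5-fold, 13 members were higher and 2 lower, where the background was 18.6% and 15.0%. The median log2 fold change was 0.20 over the members and 0.01 over all genes. The libraries of Tg-RKIP and FVB did not overlap in any of the 25 higher genes and in 4 of the 5 lower ones, the exception being Rgs6. Among all called genes the libraries did not overlap in 96.9% of the higher and 96.9% of the lower ones, so this was no feature of the members. Higher were all 5 tested Gi/o genes, both Gs genes, 2 of 4 Gq genes, 4 of 5 beta subunits, 5 of 9 gamma subunits and 7 of 14 RGS genes. Lower were both G12/13 genes and 3 RGS genes.

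The scale of the libraries sets how many genes appear higher. When counts were scaled to the total reads of each library, the median log2 fold change of all genes in Tg-RKIP against FVB was 0.38, and 36 members were higher and 2 lower. On that scale 62.6% of all genes were called higher and 17.1% lower. Going from one scale to the other added nearly the same step to each member, and the median of the members was then 0.57. The members that changed sign between the scales were Gna11, Gna13, Gng2, Gng5, Rgs4, Rgs5, Rgs6 and Rgs7, whereas Gna12 and Rgs2 were lower on both.

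**Figure D2:**
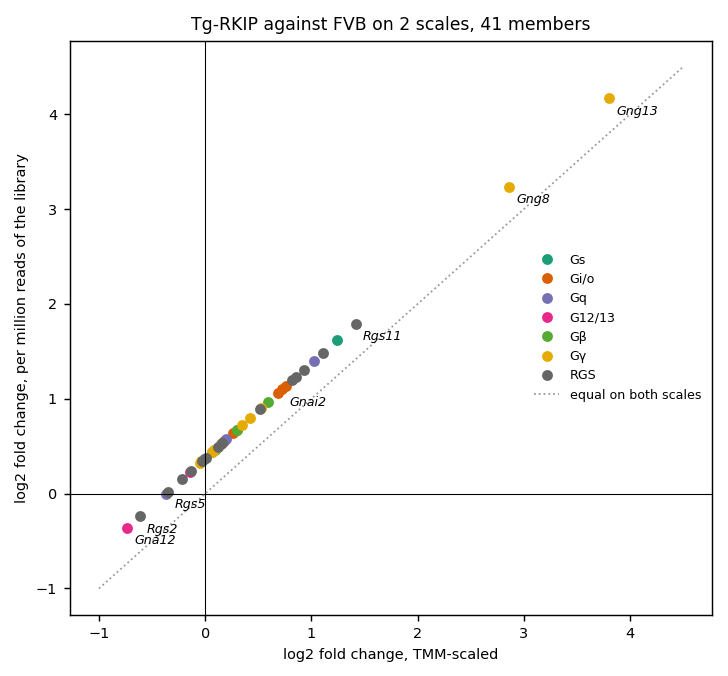
Log2 fold change of Tg-RKIP against FVB for the 41 tested members, with TMM scaling on the horizontal axis and scaling to each library's total reads on the vertical axis; colours mark families and the dotted line equal values. All points lie above the line by a near-constant step, and Gna12 and Rgs2 lie clearly below 0 on both axes.

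Among the Gi/o alpha subunits, Gnai2, the most abundant of them in these hearts, rose most precisely. Gnai2 had 299, 297 and 299 CPM in Tg-RKIP, 187, 186 and 184 in Tg-GRK2 and 183, 177 and 183 in FVB. The Tg-RKIP libraries were far above all others, with a log2 fold change over FVB of 0.72 (SE 0.02, adjusted p = 1.34e-18). Gnai1, a close relative, had 17.0, 16.9 and 17.9 in Tg-RKIP, 11.6, 12.1 and 12.1 in Tg-GRK2 and 10.4, 11.2 and 10.5 in FVB. Its log2 fold change in Tg-RKIP was 0.68 (SE 0.06, adjusted p = 6.72e-10). Gnaz, a Gi-class subunit resistant to pertussis toxin, was sparse, with 0.842, 0.733 and 0.997 in Tg-RKIP, 1.05, 0.843 and 0.695 in Tg-GRK2 and 0.320, 0.672 and 0.490 in FVB. Its log2 fold change in Tg-RKIP, 0.76 (SE 0.31), had an adjusted p of 0.0315 and rested on single libraries. Without FVB replicate 1, FVB replicate 3, Tg-RKIP replicate 1 or Tg-RKIP replicate 3 it was not called (log2 fold change 0.53, 0.74, 0.77 and 0.64, adjusted p = 0.161, 0.0743, 0.059 and 0.107). The Gnaz value in Tg-GRK2 against FVB was as large (0.77, adjusted p = 0.0832, not called). Directly compared, Tg-RKIP differed from Tg-GRK2 by -0.16 to 0.15 when 1 library was left out. Gnai3 and Gnao1 rose less in Tg-RKIP, by 0.26 (SE 0.04) and 0.18 (SE 0.03) on the log2 scale.

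The Gs gene Gnas was close to level, with 807, 786 and 807 in Tg-RKIP, 761, 759 and 770 in Tg-GRK2 and 765, 752 and 782 in FVB. The Tg-RKIP libraries were still all above FVB, and the log2 fold change of 0.06 (SE 0.02) was called at an adjusted p of 0.00410. When only the most abundant Gnas transcript was counted, the value was 0.53. Gnal, the Gs relative of olfactory neurons and striatum, had 1.46, 1.14 and 2.06 in Tg-RKIP, 0.971, 0.460 and 0.496 in Tg-GRK2 and 0.720, 0.495 and 0.735 in FVB. The groups Tg-RKIP and FVB did not overlap, and the log2 fold change was 1.24 (SE 0.30, adjusted p = 0.000985). The span of Gnal, which had 45 to 62 reads in Tg-RKIP and 14 to 18 in FVB, overlaps those of Chmp1b and Mppe1. Chmp1b had 1548 to 1980 reads in Tg-RKIP and 885 to 1050 in FVB, and Mppe1, which was not called (log2 fold change -0.12), had 580 to 742 and 480 to 604. How reads of overlapping genes were divided is not given in the sources used here.

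Of the Gq class, Gna15, a subunit of blood cells that couples to many receptors, rose and the 2 main cardiac members moved little. Gna15 had 1.91, 1.89 and 1.76 in Tg-RKIP, 0.784, 0.690 and 0.993 in Tg-GRK2 and 0.959, 0.920 and 0.857 in FVB. Its log2 fold change in Tg-RKIP was 1.02 (SE 0.21, adjusted p = 0.000136). Gna11 had 69.4, 67.4 and 67.3 in Tg-RKIP, 69.3, 70.1 and 72.3 in Tg-GRK2 and 70.0, 64.9 and 71.2 in FVB, and these groups overlapped (log2 fold change -0.01, SE 0.03, adjusted p = 0.722). Gnaq was higher by 0.20 on the log2 scale (SE 0.04, adjusted p = 0.000140).

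Gna12, the more abundant subunit of the G12/13 class in these hearts, fell in Tg-RKIP. It had 130, 126 and 128 CPM in Tg-RKIP, 224, 234 and 225 in Tg-GRK2 and 214, 213 and 211 in FVB. The Tg-RKIP libraries were all below the others, with a log2 fold change of -0.73 (SE 0.02, adjusted p = 8.98e-18), and the value stayed below 0 when counts were scaled to total reads (-0.36). Gna13 was lower by less (log2 fold change -0.15, SE 0.04, adjusted p = 0.00103), and on total reads its sign turned (0.23). The 250 bases before the RefSeq start of Gna12 (GRCm38.p6, chr5:140830432-140830681, minus strand) are shown because Gna12 had the largest fall of the members, with GC boxes (GGGCGG on either strand, overlapping matches counted) in capitals.
Gna12: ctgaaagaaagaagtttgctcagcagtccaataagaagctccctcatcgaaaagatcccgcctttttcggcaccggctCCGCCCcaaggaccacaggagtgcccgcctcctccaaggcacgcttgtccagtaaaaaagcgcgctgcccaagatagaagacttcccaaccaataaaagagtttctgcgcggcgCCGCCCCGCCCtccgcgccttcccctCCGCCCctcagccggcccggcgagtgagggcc
They hold 4 GC boxes, a pair of which share 1 base, and 32.7% of the 32851 RefSeq windows of the same length hold at least 1.

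Of the 5 beta subunits 4 were higher in Tg-RKIP, with Gnb1, Gnb2, Gnb3 and Gnb4 called and Gnb5 not. The call of Gnb4 (log2 fold change 0.15, adjusted p = 0.00810) was lost without Tg-RKIP replicate 1 (0.109, adjusted p = 0.0563). Gnb2 had 127, 125 and 133 in Tg-RKIP, 98.3, 101 and 99.6 in Tg-GRK2 and 102, 106 and 105 in FVB. Tg-RKIP lay above both other groups, with a log2 fold change over FVB of 0.30 (SE 0.03, adjusted p = 2.77e-09), and Gnb1 had the same value of 0.30 (SE 0.02). Gnb3, the beta subunit of cones that is also known from heart, had 21.0, 20.2 and 21.1 in Tg-RKIP, 9.41, 9.66 and 10.6 in Tg-GRK2 and 13.7, 13.7 and 14.0 in FVB. Like Gna12, Gnai3 and Gnao1, it was called in opposite directions in the 2 transgenic groups. Against FVB the Gnb3 log2 fold change was 0.59 (SE 0.05, adjusted p = 2.44e-09) in Tg-RKIP and -0.48 (SE 0.06, adjusted p = 6.78e-06) in Tg-GRK2. Both comparisons share the FVB libraries, and the direct comparison of Tg-RKIP with Tg-GRK2 gave 1.07 (SE 0.06, adjusted p = 1.90e-13). A transcript with a retained intron, Gnb3_1, was assigned a large part of Gnb3 reads, at 69.6 ± 5.94% in Tg-RKIP, 49.2 ± 23.1% in Tg-GRK2 (38.5, 33.3 and 75.6%) and 84.1 ± 8.62% in FVB. Reads assigned to its protein-coding transcript Gnb3_4 numbered 183, 195 and 229 in Tg-RKIP, 155, 167 and 76 in Tg-GRK2 and 37, 41 and 85 in FVB, so that the protein-coding assignment did not follow the gene total in Tg-GRK2.

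The largest log2 fold changes among the 41 genes were in 2 gamma subunits of low abundance. Both had enough reads for the test only through the Tg-RKIP libraries, so they could enter it only as genes higher there. Gng13, a gamma subunit of taste and olfactory cells and of retinal bipolar cells (chromosome 17, 25936145 to 25938380 in GRCm39), had 26, 40 and 30 reads in Tg-RKIP, 0, 3 and 4 in Tg-GRK2 and 3, 2 and 0 in FVB. The Tg-RKIP libraries were all far above the others. The ratio of the summed, scaled reads was 14.8 over FVB, with an exact 95% counting interval of 6.15 to 46.8, and the fitted log2 fold change, which depends on a prior count, was 3.80 (SE 0.54, adjusted p = 1.62e-06). Gng8, known from olfactory and vomeronasal neurons (chromosome 7, 16625711 to 16629361), had 80, 98 and 60 reads in Tg-RKIP, 8, 13 and 13 in Tg-GRK2 and 8, 9 and 8 in FVB. Its ratio was 7.36 (exact 95% counting interval 4.87 to 11.6), with a fitted log2 fold change of 2.86 (SE 0.26, adjusted p = 1.81e-09). Both intervals cover counting error only. Per length, Gng8 reached 5.81 ± 1.07 TPM and Gng13 4.74 ± 0.781 TPM in Tg-RKIP, which was 1.52 ± 0.258% and 1.24 ± 0.207% of all gamma-subunit TPM.

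The promoter window of Gng8 (GRCm38.p6, chr7:16891536-16891785, plus strand) is shown for its place among the members with the largest rise, with the single GC box in capitals.
Gng8: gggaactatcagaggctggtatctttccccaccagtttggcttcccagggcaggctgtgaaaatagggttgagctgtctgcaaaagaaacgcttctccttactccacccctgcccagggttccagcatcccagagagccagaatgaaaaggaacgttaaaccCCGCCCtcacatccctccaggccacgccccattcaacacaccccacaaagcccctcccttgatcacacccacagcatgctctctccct
Chtf18, which overlaps the span of Gng13, had 46 to 60 reads in Tg-RKIP and 26 to 28 in FVB. Markers of neurons gave 1 higher and 1 lower gene of 4 tested in Tg-RKIP, with a summed level of 17.1 to 18.7 TPM against 10.8 to 11.3 TPM in FVB, and no gene of the 6 was at 0 in either group. Markers of airway epithelium summed to 56.1 to 58.9 TPM in Tg-RKIP, 138 to 146 TPM in Tg-GRK2 and 0.38 TPM in FVB, where Scgb1a1 was listed at 0. Most of that sum was Scgb1a1, and Epcam of the same list was higher in Tg-RKIP (log2 fold change 1.07, adjusted p = 0.00238) and not called in Tg-GRK2 (0.15). The part of other cell types in these values was not tested.

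Of the other gamma subunits, the abundant Gng5 was level, with 68.9, 70.5 and 68.3 in Tg-RKIP, 70.0, 69.8 and 67.2 in Tg-GRK2 and 70.4, 70.4 and 74.7 in FVB. The libraries of Tg-RKIP and FVB overlapped (log2 fold change -0.05, SE 0.03, adjusted p = 0.137). Gngt2, a cone subunit also found in blood cells, had 5.25, 4.95 and 5.45 in Tg-RKIP, 4.11, 5.10 and 5.00 in Tg-GRK2 and 3.20, 3.86 and 3.76 in FVB. Both transgenic groups lay above FVB, with log2 fold changes of 0.53 (SE 0.12, adjusted p = 0.000345) in Tg-RKIP and 0.39 (SE 0.12, adjusted p = 0.0204) in Tg-GRK2. The Tg-GRK2 call was lost without FVB replicate 1, Tg-GRK2 replicate 2 or Tg-GRK2 replicate 3 (log2 fold change 0.315, 0.341 and 0.348, adjusted p = 0.0943, 0.081 and 0.0804). The span of Gngt2 overlaps that of Abi3, which had 346 to 458 reads in Tg-RKIP, 224 to 253 in Tg-GRK2 and 247 to 339 in FVB. Abi3 had log2 fold changes of 0.03 in Tg-RKIP and -0.39 in Tg-GRK2, and how shared reads were divided is not given. Gng10 and Gng7 rose in Tg-RKIP by 0.35 (SE 0.05) and 0.42 (SE 0.16) on the log2 scale. The call of Gng7 was lost without FVB replicate 2 (0.31, adjusted p = 0.125) or Tg-RKIP replicate 2 (log2 fold change 0.225, adjusted p = 0.221).

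**Figure D3:**
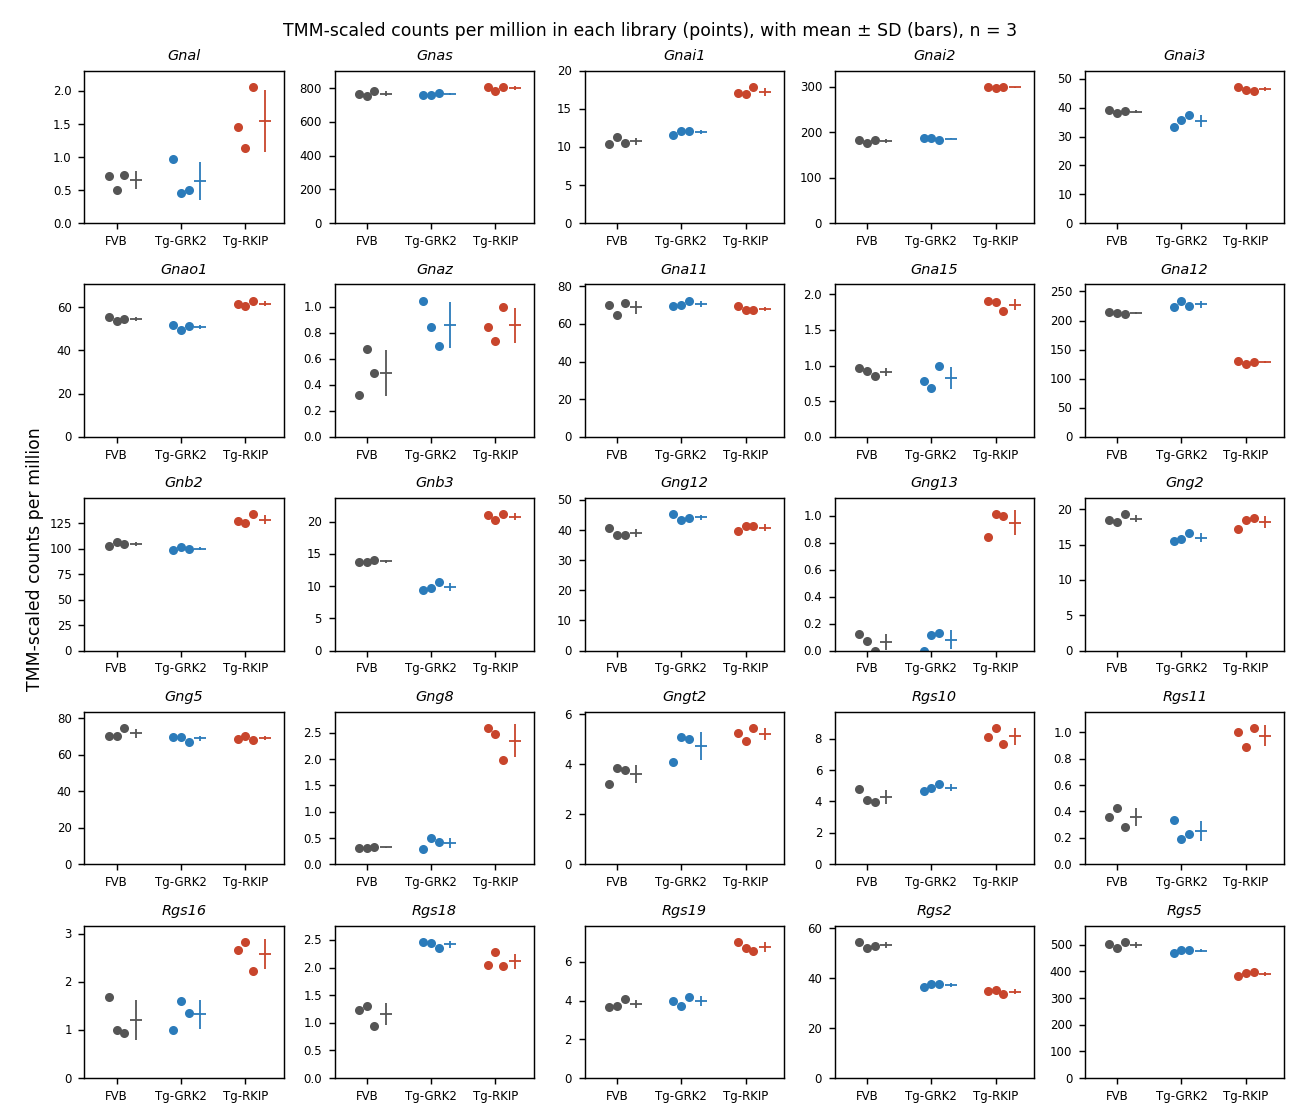
TMM-scaled CPM of 25 genes in each of the 9 libraries (points; every vertical axis starts at 0), with the mean and SD of each group of 3 beside them. Gnai2, Gng8, Gng13, Rgs10 and Rgs19 show Tg-RKIP above both other groups, Gna12 shows it below, and Rgs2 is lower in both transgenic groups than in FVB.

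RGS genes moved in both directions in Tg-RKIP, with 7 higher and 3 lower of 14 tested. Rgs10, which acts on Gi/o subunits in macrophages and microglia, had 8.09, 8.67 and 7.64 in Tg-RKIP, 4.67, 4.87 and 5.09 in Tg-GRK2 and 4.80, 4.10 and 3.96 in FVB. Its log2 fold change in Tg-RKIP was 0.93 (SE 0.10, adjusted p = 1.68e-08). Rgs19, a small RGS protein also called GAIP, had 7.03, 6.70 and 6.55 in Tg-RKIP, 3.99, 3.72 and 4.20 in Tg-GRK2 and 3.68, 3.71 and 4.08 in FVB, with a log2 fold change of 0.82 (SE 0.10, adjusted p = 1.66e-07). In both genes Tg-RKIP stood alone.

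Rgs16, an inducible regulator of Gi and Gq, had 2.66, 2.83 and 2.23 in Tg-RKIP, 1.01, 1.61 and 1.36 in Tg-GRK2 and 1.68, 0.990 and 0.939 in FVB, with a log2 fold change of 1.11 (SE 0.22, adjusted p = 9.69e-05). Rgs11, of the R7 class that binds Gnb5, had 1.00, 0.884 and 1.03 in Tg-RKIP, 0.336, 0.192 and 0.232 in Tg-GRK2 and 0.360, 0.424 and 0.286 in FVB. Its log2 fold change was 1.42 (SE 0.30, adjusted p = 0.000253), from 31, 35 and 31 reads against 9, 12 and 7. Rgs11, too, had enough reads for the test only through the Tg-RKIP libraries. Arhgdig, whose span overlaps Rgs11, was also higher (log2 fold change 1.51, adjusted p = 2.63e-05), with 51 to 74 reads in Tg-RKIP against 10 to 19 in FVB.

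Rgs18, a regulator in platelets and megakaryocytes, rose in both transgenic groups. It had 2.04, 2.27 and 2.03 in Tg-RKIP, 2.46, 2.45 and 2.35 in Tg-GRK2 and 1.24, 1.31 and 0.939 in FVB. All 6 transgenic libraries were above all FVB libraries, and the log2 fold changes over the shared FVB controls were 0.86 (SE 0.18, adjusted p = 0.000212) and 1.05 (SE 0.18, adjusted p = 0.000150). The direct difference of Tg-RKIP from Tg-GRK2 was -0.19, with a 95% interval of -0.50 to 0.12. Of the 5 platelet markers, 5 were higher in Tg-RKIP and 3 in Tg-GRK2, and their summed level was 51.8 to 61.0 TPM, 33.4 to 36.6 TPM and 25.7 to 26.5 TPM in Tg-RKIP, Tg-GRK2 and FVB, with no marker at 0. Pf4 made most of that sum (46.5, 26.8 and 23.9 TPM) and, like Gp1bb, was not called in Tg-GRK2. The others, Itga2b, Ppbp and Gp9, had log2 fold changes of 1.59, 2.02 and 2.35 in Tg-RKIP and 1.68, 2.41 and 2.25 in Tg-GRK2. Of the 8 macrophage markers, 8 were higher in Tg-RKIP and 4 in Tg-GRK2, with sums of 721 to 729 TPM, 313 to 328 TPM and 280 to 289 TPM. Of the 6 lymphocyte markers, 5 were higher in Tg-RKIP and 2 in Tg-GRK2, with sums of 9.23 to 10.6 TPM, 2.15 to 3.10 TPM and 2.47 to 3.07 TPM. Lists of other cells were shifted in Tg-RKIP as well, with 7 of 7 fibroblast and 6 of 6 adipocyte markers higher. Of 5 smooth muscle markers 4 were higher and 1 lower, and of 7 endothelial markers 5 were higher and 2 lower. The part of any of these cells in the rise of Rgs10, Rgs18, Rgs19, Gna15, Gngt2 and Gnai2 was not tested.

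Rgs2, which limits Gq signalling and is induced by cyclic AMP and calcium, was lower in both transgenic groups. It had 34.8, 35.4 and 33.7 in Tg-RKIP, 36.3, 37.5 and 37.6 in Tg-GRK2 and 54.5, 52.2 and 52.8 in FVB. All transgenic libraries lay below all FVB libraries, with log2 fold changes of -0.62 (SE 0.03, adjusted p = 6.07e-13) in Tg-RKIP and -0.52 (SE 0.04, adjusted p = 4.16e-10) in Tg-GRK2. Scaled to total reads, the Tg-RKIP value was -0.24. The direct difference of Tg-RKIP from Tg-GRK2 was -0.10 (SE 0.04, adjusted p = 0.0190), a call lost without Tg-GRK2 replicate 2, Tg-GRK2 replicate 3 or Tg-RKIP replicate 3 (adjusted p = 0.0642, 0.058 and 0.0711). As a share of RGS TPM, Rgs2 made 8.01 ± 0.225% in Tg-RKIP, 8.96 ± 0.491% in Tg-GRK2 and 12.5 ± 0.305% in FVB. The promoter window of Rgs2 (GRCm38.p6, chr1:144004150-144004399, minus strand) is shown because Rgs2 was the member with the largest fall that both transgenic groups shared, with its GC boxes in capitals.
Rgs2: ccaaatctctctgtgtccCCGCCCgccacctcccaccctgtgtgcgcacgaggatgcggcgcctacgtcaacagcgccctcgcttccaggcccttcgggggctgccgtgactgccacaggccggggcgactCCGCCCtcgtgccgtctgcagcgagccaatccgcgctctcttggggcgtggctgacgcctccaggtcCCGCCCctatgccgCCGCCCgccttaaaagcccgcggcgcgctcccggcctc
It holds 4 GC boxes. The cyclic AMP response element in its full form TGACGTCA, searched on both strands, is held by 1.55% of all windows and was not found in this one. As nearly all windows lack the full form, its absence says nothing particular to Rgs2, and shorter forms were not searched.

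Rgs5 had 383, 395 and 397 in Tg-RKIP, 470, 482 and 482 in Tg-GRK2 and 502, 488 and 511 in FVB. The 3 groups did not overlap, with log2 fold changes of -0.35 (SE 0.02, adjusted p = 7.60e-13) in Tg-RKIP and -0.07 (SE 0.02, adjusted p = 0.0204) in Tg-GRK2. On total reads, where the median of all genes was 0.38, the Tg-RKIP value was 0.02, and the levels per length were 178 ± 2.02 TPM against 169 ± 3.61 TPM. The Tg-GRK2 call was lost without FVB replicate 1, FVB replicate 3 or Tg-GRK2 replicate 1 (adjusted p = 0.055, 0.117 and 0.0941). Of the 8 pericyte markers, 4 were higher and 3 lower in Tg-RKIP, with sums of 180 to 183 TPM against 184 to 190 TPM in FVB. Abcc9 made the largest part of the FVB sum and was lower in Tg-RKIP (97.6 against 45.2 TPM, log2 fold change -1.53). Kcnj8 (-0.60) and Vtn (-0.36) were also lower, while Pdgfrb (0.57), Cspg4 (0.65), Notch3 (0.23) and Ndufa4l2 (0.39) were higher. The part of pericytes in the Rgs5 values was not tested.

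**Figure D4:**
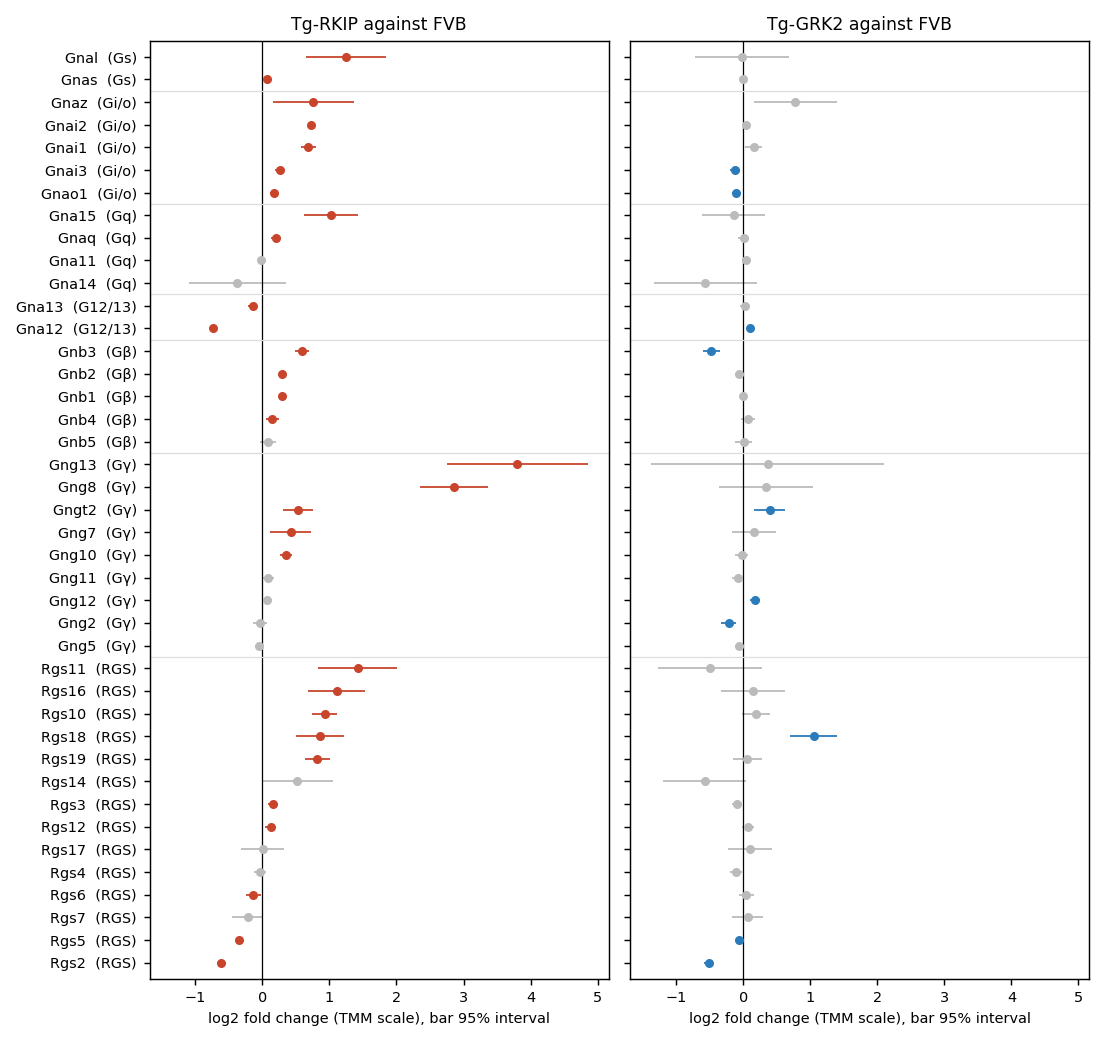
Log2 fold change (horizontal axis, TMM scale) of the 41 tested genes against FVB, with bars of 95% intervals, for Tg-RKIP (left) and Tg-GRK2 (right) on 1 shared axis. Coloured points passed the threshold, 25 above and 5 below 0 on the left and 4 above and 6 below 0 on the right.

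Beyond their totals, several members, RGS genes and subunits alike, divided their reads differently among transcripts in Tg-RKIP, the clearest being Rgs12. Rgs12, a regulator of Gi/o with long and short protein forms, changed little as a gene, by 0.12 on the log2 scale (SE 0.04, adjusted p = 0.0166). This call was lost without FVB replicate 1 or Tg-RKIP replicate 1 (adjusted p = 0.061 and 0.107), and the sign turned when only the most abundant transcript was counted (-1.03). Its long transcript Rgs12_7, with 17 exons and 5472 bases (chromosome 5, 35106789 to 35190939), took 38.1, 37.8 and 30.6% of Rgs12 reads in Tg-RKIP, 89.1, 76.6 and 83.2% in Tg-GRK2 and 74.4, 82.8 and 78.0% in FVB. The shorter transcript Rgs12_12, with 14 exons and 3439 bases, starts 49612 bases further in and took 58.4, 59.3 and 62.6% in Tg-RKIP, 0, 11.4 and 2.23% in Tg-GRK2 and 17.4, 6.88 and 18.9% in FVB. The Tg-RKIP libraries were apart from all others for both transcripts. In reads, Rgs12_12 had 548, 649 and 540 in Tg-RKIP and 114, 52 and 123 in FVB, while Rgs12_7 had 357, 414 and 264 against 487, 626 and 507.

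RefSeq gives 2 start sites for Rgs12 in GRCm38.p6, 49630 bases apart, a spacing within 18 bases of that of the deposited transcripts. The 250 bases before each are shown because their spacing is close to that of the 2 transcript starts, the first at chr5:34949198-34949447 and the second at chr5:34998828-34999077, both on the plus strand. Capitals mark GC boxes and, in the second, an AP-1 element (TGAGTCA on either strand).
Rgs12 distal: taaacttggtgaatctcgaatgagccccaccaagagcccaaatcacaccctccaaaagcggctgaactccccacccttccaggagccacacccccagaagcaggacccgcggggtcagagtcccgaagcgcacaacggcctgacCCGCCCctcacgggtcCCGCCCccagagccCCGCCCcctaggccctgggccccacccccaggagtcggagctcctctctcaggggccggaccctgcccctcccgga
Rgs12 internal: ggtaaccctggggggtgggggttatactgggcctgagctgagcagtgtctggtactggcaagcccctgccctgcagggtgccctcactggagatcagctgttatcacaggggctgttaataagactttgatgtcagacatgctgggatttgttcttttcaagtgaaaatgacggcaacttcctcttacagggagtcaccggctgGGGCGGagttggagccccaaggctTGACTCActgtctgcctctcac
The distal window holds 3 GC boxes and is 68.4% G and C, and the internal one holds 1 GC box and 1 AP-1 element and is 55.6% G and C. Of all windows 4.46% hold an AP-1 element. These matches are a description of the letters.

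Rgs3, Rgs4 and Rgs6 also divided their reads differently. The leading transcript of Rgs3 in FVB, Rgs3_12, took 13.1, 22.7 and 17.5% of its reads in Tg-RKIP and 45.9, 41.1 and 46.9% in FVB, while the short 3-prime transcript Rgs3_16, of 5 exons, took 38.1 ± 1.71% and 23.3 ± 3.53%. Rgs3 as a gene was higher by 0.16 on the log2 scale (SE 0.04, adjusted p = 0.000803), and its most abundant transcript alone gave -1.17. Rgs4_2 took 61.1 ± 2.09% of Rgs4 reads in Tg-RKIP and 77.9 ± 7.73% in FVB, with the rest on Rgs4_3, and Rgs4 as a gene was not called (log2 fold change -0.03, SE 0.05, adjusted p = 0.517). Rgs6_10 took 50.1 ± 4.60% of Rgs6 reads against 67.8 ± 2.35%, and Rgs6_8 40.1 ± 1.28% against 20.1 ± 0.711%. Of the subunits, Gnas_28 took 37.8 ± 2.55% of Gnas reads against 27.0 ± 1.10%, and Gnao1_8 19.7 ± 2.16% of Gnao1 reads against 31.0 ± 1.47%. The retained-intron transcript Gnb2_1 took 35.7 ± 1.79% of Gnb2 reads against 24.0 ± 3.26%. The most abundant Gnb2 transcript alone gave a log2 fold change of 0.86. None of these subunit transcripts led its gene in FVB. Taken over all genes with 2 or more transcripts and 200 reads or more in every library, the leading FVB transcript lost or gained 10 percentage points or more without overlap in 4 of 22 members in Tg-RKIP and in 19.5% of 8222 genes, so as a group the members were near the background. In Tg-GRK2 the same count was 0 of 22, with a background of 3.70%. How the authors' counting divided reads shared by transcripts is not given, so these are assignments of reads and no test was made on them.

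**Figure D5:**
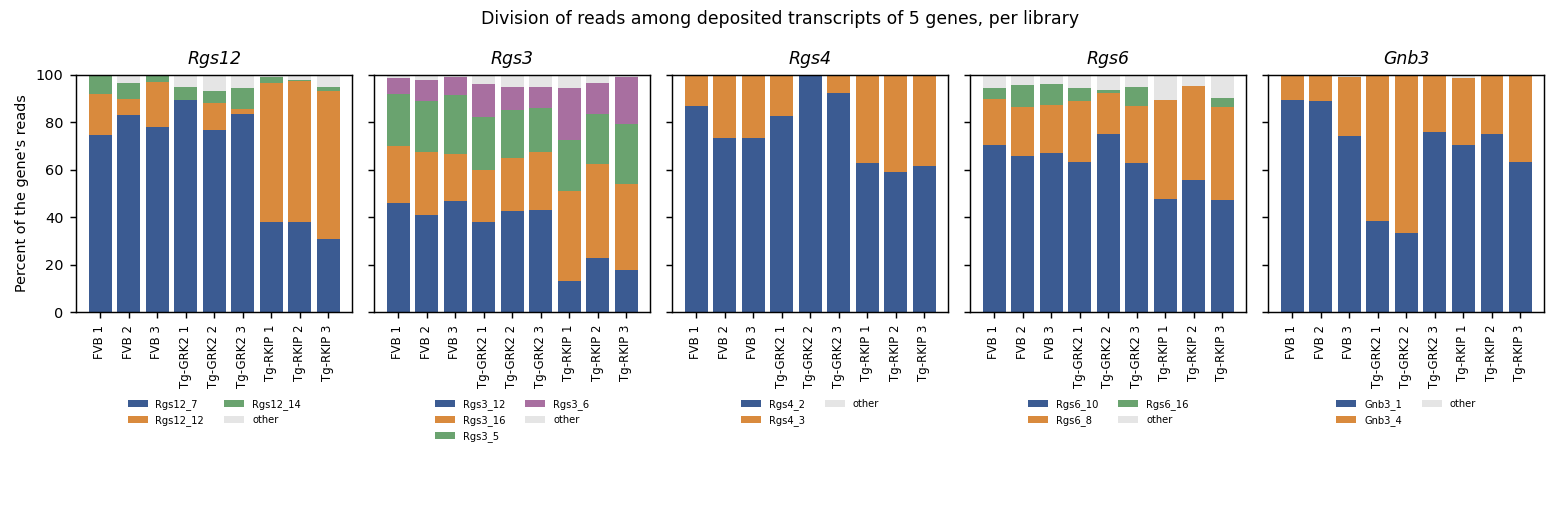
Percent of each gene's reads assigned to its transcripts (stacked bars, 1 per library) for Rgs12, Rgs3, Rgs4, Rgs6 and Gnb3. Rgs12_12 takes 58.4 to 62.6% in the Tg-RKIP libraries and 0 to 18.9% in the others.

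In the libraries labelled Tg-GRK2, 4 of the 41 genes were higher than in FVB and 6 lower, where 12.2% of all genes were called in each direction. The higher genes were Rgs18, Gngt2, Gng12 and Gna12, and the lower ones Rgs2, Gnb3, Gng2, Gnai3, Gnao1 and Rgs5. The libraries of the 2 groups did not overlap in these 4 and 6 genes, as was so for 97.2% of all genes called higher and 95.1% of those called lower. The median log2 fold change of the members was 0.01. Rgs18 was the only one of the 10 called members that differed by more than 1.5-fold. Gng12, a widely expressed gamma subunit, had 45.2, 43.3 and 44.0 in Tg-GRK2, 39.6, 41.5 and 41.4 in Tg-RKIP and 40.6, 38.4 and 38.2 in FVB (log2 fold change in Tg-GRK2 0.18, SE 0.04, adjusted p = 0.00117). Gng2 had 15.5, 15.8 and 16.7 in Tg-GRK2, 17.3, 18.4 and 18.8 in Tg-RKIP and 18.5, 18.3 and 19.3 in FVB (-0.22, SE 0.06, adjusted p = 0.00524). Tg-GRK2 was the outlying group in both genes.

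Gna12 was higher in Tg-GRK2 by 0.10 on the log2 scale (SE 0.02, adjusted p = 0.00210), in contrast to its fall in Tg-RKIP, and the direct comparison of Tg-RKIP with Tg-GRK2 gave -0.83 (SE 0.02, adjusted p = 8.12e-19). Gnai3 had 33.2, 35.7 and 37.3 in Tg-GRK2, 47.1, 46.1 and 45.9 in Tg-RKIP and 39.1, 38.1 and 38.7 in FVB. Its log2 fold change in Tg-GRK2 of -0.12 (SE 0.04, adjusted p = 0.0331) was not called without any 1 of FVB replicate 1, 2 or 3 or Tg-GRK2 replicate 1 or 2 (adjusted p = 0.0954, 0.0517, 0.079, 0.211 and 0.0676), and the value without Tg-GRK2 replicate 1, the library that stood apart, was -0.08. Gnao1, the Go subunit, had 51.7, 49.5 and 51.1 in Tg-GRK2, 61.4, 60.6 and 63.0 in Tg-RKIP and 55.3, 53.8 and 54.6 in FVB. Its call in Tg-GRK2 (log2 fold change -0.10, SE 0.03, adjusted p = 0.0243) was lost without FVB replicate 1, FVB replicate 3 or Tg-GRK2 replicate 2 (adjusted p = 0.0816, 0.0578 and 0.113). Rgs18, Gng12, Gna12, Rgs2, Gnb3 and Gng2 were called in all 9 fits that left out 1 library. Directly compared, 22 members were higher in Tg-RKIP than in Tg-GRK2 and 7 lower, with backgrounds of 37.9% and 36.6%. The libraries did not overlap in any of these genes, nor in 97.1% and 97.4% of all genes called higher and lower.

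Among the genes not tested, Gnat3, the taste alpha subunit gustducin, had 6 reads in each Tg-GRK2 library, 1 to 2 in Tg-RKIP and 2 to 3 in FVB. The Tg-GRK2 to FVB ratio was 2.41, with an exact 95% counting interval of 0.959 to 6.82, which includes 1. Rgs1, a gene of lymphocytes, had 8, 10 and 12 reads in Tg-RKIP and 3, 3 and 2 in FVB, a ratio of 2.90 (exact 95% counting interval 1.30 to 7.32). Gng3, whose span overlaps that of the more abundant Bscl2, had a ratio of 2.58 in Tg-RKIP (1.19 to 6.17). For Gnat2, Gng4 and Rgs9 the Tg-RKIP intervals included 1. These intervals cover counting error only and make no allowance for the choice among genes.

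Partners of the G proteins were called in both directions in Tg-RKIP, where the background was 36.8% of all genes higher and 37.1% lower. Of 10 tested exchange factors, guanine nucleotide dissociation inhibitors and chaperones of alpha subunits, 4 were higher and 5 lower, and the largest change was in Gpsm3, an inhibitor of Gi dissociation in leukocytes (log2 fold change 1.53, SE 0.12, adjusted p = 1.27e-10). Of 9 genes of prenyl and acyl transfer, which anchor gamma and alpha subunits in the membrane, 3 were higher and 4 lower, led by the prenyl-protein protease Rce1 (0.61, SE 0.12, adjusted p = 7.45e-05). Of the 4 phospholipase C beta genes, effectors of Gq, 1 was higher and 2 lower, led by Plcb1 (-0.27, SE 0.07, adjusted p = 0.00111).

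Both genes of the atrial potassium channel opened by beta-gamma dimers were lower in Tg-RKIP. Kcnj5 had a log2 fold change of -1.07 (SE 0.03, adjusted p = 6.89e-18), and Kcnj3 one of -1.53 (SE 0.03, adjusted p = 2.76e-22). Regulators of this channel are the R7 class RGS proteins, which act as complexes with Gnb5 and the anchor Rgs7bp. Here Rgs6 was lower by 0.14 on the log2 scale (SE 0.06, adjusted p = 0.0403), a call lost without FVB replicate 2 or 3 or Tg-RKIP replicate 2 or 3 (adjusted p = 0.204, 0.119, 0.104 and 0.135), and its sign turned on total reads (0.24). Rgs7 (-0.22, SE 0.12, adjusted p = 0.101) and Gnb5 (0.09, SE 0.06, adjusted p = 0.187) were not called. Rgs11, of the same class, was higher, as given above. Rgs7bp, singled out after its value was seen, was lower (log2 fold change -0.76, SE 0.07, adjusted p = 2.33e-09). Of the 5 atrial cardiomyocyte markers 2 were higher and 3 lower, and of the 8 cardiomyocyte markers 1 was higher and 6 lower, and the atrial markers summed to 22050 to 22654 TPM in Tg-RKIP against 5808 to 5950 TPM in FVB. Nppa made most of that sum (19219 against 3898 TPM), while Myl7 (log2 fold change -1.28), Sln (-0.40) and Bmp10 (-0.21) were lower, and the part of these cells in the fall of the channel genes was not tested.

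In Tg-GRK2, too, partners were called in both directions. Of the exchange and chaperone genes 1 was higher and 2 lower, led by Pdcl3 (-0.24, SE 0.04, adjusted p = 2.59e-05). In prenyl and acyl transfer 1 gene was higher and none lower, Zdhhc3 (log2 fold change 0.11). In phospholipase C beta none was higher and 1 lower, Plcb4 (-0.14, SE 0.03, adjusted p = 0.00112). Of the channel genes Kcnj3 was higher (log2 fold change 0.13, SE 0.02, adjusted p = 0.000342). The background for these counts is the 12.2% in each direction given above. Few genes were called in that comparison at all, so the low counts are no feature of the partners.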

How the data were processed

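The authors deposited, for 127558 Ensembl transcripts in 9 libraries of mouse heart, whole-number read counts that were not normalized, and TPM per transcript. Per the labels, 50-base single reads were sequenced from fragmented mRNA, and the submitters' processing notes name GRCm39. The aligner, the counting program and the use of strand are not given in the sources used here. The deposited TPM equals that recomputed from the counts and transcript lengths to within 5.5e-06.

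For each of 41710 gene names, transcript values were added up. The gene counts entered edgeR 4.0.16 under R 4.3.3 (TMM, filterByExpr, glmQLFit and glmQLFTest, a mean for each of 3 groups), with Benjamini-Hochberg adjustment over 15504 genes and a threshold of 0.05. TMM-scaled CPM were used for values per library. Alternatives were DESeq2 1.42.0, limma 3.58.1 on log2(TPM + 0.1) and log2(TPM + 1), other scalings and filters, a replicate block, the most abundant transcript, and leaving out each library. Scripts were tested on simulated data.

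The study's legends describe 3 mice per group for Tg-RKIP and FVB. For Tg-GRK2 separate animals are not stated in the sources used here, so its p-values may measure technical spread. The variation between libraries beyond counting error was small in all groups, at 1.88% in Tg-RKIP, 2.12% in FVB and 3.68% in Tg-GRK2. The small p-values and the many calls rest on this spread. Whether it is the spread between mice was not tested for any group. The lists, the rule for naming genes and the members were chosen with earlier results of these data known. Values per library were given for members called in Tg-RKIP against FVB with at least a 1.5-fold difference, for members called in Tg-GRK2 against FVB, and for the most abundant gene of each class, 25 genes in all. Promoter windows are from RefSeq (GRCm38.p6), which held 40 of the 54 genes; gene positions are in GRCm39 as deposited. One list of effector genes is not reported here.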

Additional observations from a re-analysis of the deposited data

How the results depend on the processing

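In Tg-RKIP against FVB, the count of 5 lower members became 2 with library size only, 3 with library size without mitochondrial genes, 2 with limma on log2(TPM + 0.1), 2 with limma on log2(TPM + 1) and 8 with the most abundant transcript. The count of 25 higher members was 36, 33, 33, 33 and 17 under these settings, 22 with DESeq2's Wald test, and 22 to 26 when 1 library was left out, with 4 to 5 lower. In Tg-GRK2 against FVB, the 6 lower members became 3 with DESeq2's Wald test, 3 with limma at either pseudocount and 2 with the most abundant transcript. Leaving out 1 library gave 3 to 6 lower and 3 to 5 higher there, the lowest count being without FVB replicate 1. In Tg-RKIP against Tg-GRK2, the 22 higher members became 35 with library size only, and the 7 lower became 1 with library size only, 2 without mitochondrial genes and 1 with limma at either pseudocount. Leaving out 1 library gave 22 higher throughout and 4 to 7 lower, the lowest count being without Tg-GRK2 replicate 2.

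Among the 25 genes given by library, signs turned for these log2 fold changes of Tg-RKIP against FVB, given for library size only, library size without mitochondrial genes, limma with 0.1 and limma with 1: Gna11 0.36, 0.16, 0.40 and 0.39, Gng2 0.34, 0.14, 0.59 and 0.55, and Gng5 0.32, 0.12, 0.37 and 0.37. Rgs5 turned to 0.0217, 0.0750 and 0.0746 with library size only and the 2 limma fits, and Gna11, at -0.0590 to 0.00739 when 1 library was left out, turned without FVB replicate 3. These scalings put the median of all genes at 0.18 to 0.43, where TMM put it at 0.01. Of the other members, Gna13, Rgs4, Rgs6 and Rgs7 turned with library size only, and Rgs3 (-1.17) and Rgs12 (-1.03) with the most abundant transcript. In Tg-GRK2 against FVB, signs turned only for members that were not called in the main test. Gnas turned to values of 0.00 to 0.02 with DESeq2's Wald test (0.0048), DESeq2 size factors (0.0045), library size only (0.0068), limma (0.023 at either pseudocount), without FVB replicate 3 (0.0093) and without Tg-GRK2 replicate 2 (0.00065). Gnal turned to 0.07, 0.09, 0.17 and 0.15 without FVB replicates 1 and 3 and Tg-GRK2 replicates 2 and 3, and Gng13 to -0.15 and -0.17 without FVB replicate 3 and Tg-GRK2 replicate 3. Gna15 (0.33) and Gnb2 (0.0331) turned with the most abundant transcript, Rgs11 (0.0048) with limma at 0.1, Gna11 (-0.00016) without FVB replicate 2 and Rgs16 (-0.0075) without Tg-GRK2 replicate 2. The ranges over the fits without 1 library were -0.00016 to 0.0674 for Gna11, -0.424 to 0.17 for Gnal, -0.0189 to 0.0093 for Gnas, -0.17 to 1.07 for Gng13 and -0.0075 to 0.453 for Rgs16.

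Replicate numbers are shared by the groups, but deviations of same-numbered libraries correlated at -0.03 to 0.02, so the numbers were not taken to pair libraries. With a replicate block the counts of higher and lower members were 25 and 5, 4 and 6, and 22 and 7 in the 3 comparisons, as in the main test. Among genes of under 100 reads per library, such as Gnaz, Gnal, Gng13, Rgs11 and Gnat3, depth limits what could be seen.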
